A study of Mus musculus with 2 samples.

Results

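Contractile genes and targets of the transcription factors SRF and YAP were described in neural stem cells that were taken from the brains of ICR mice at embryonic day 13. Of the 10 genes chosen by name, 9 were found in the table of 19595 genes by their symbol: Acta2, Cnn1, Myl9, Tpm1, Tpm2, Ctgf, Cyr61, Postn and Thbs1. Tagln, the 10th, was not analysed here. The series compared messenger RNA of control cells, labelled psicor with the genotype WT, with that of cells labelled sh1 with the genotype KO, which its design text calls a knockdown and its title ties to Ccdc25. Cell type, strain and stage are shared by both groups, the labels do not describe the construct behind either name, and they do not say how many animals or cultures a library holds. The series' text mentions triplicates, whereas each group has a single column of counts. No difference below was therefore tested between samples. Each interval is a 95% interval for counting error only and says nothing about the spread between cultures.

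SRF is a transcription factor that binds CArG boxes in the promoters of actin and other cytoskeletal genes. Its cofactors of the MRTF family enter the nucleus when the pool of free actin monomers shrinks, so these genes follow the assembly of actin filaments. YAP and its relative TAZ are co-activators that are held back by the Hippo kinases and act through TEAD factors, which bind MCAT elements. Smooth muscle cells, pericytes and activated fibroblasts carry the most contractile transcripts, while neural progenitors depend mainly on the non-muscle actins, tropomyosins and myosin light chains. The members were picked with their values in these libraries known, so their direction is a description and supports nothing by itself.

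All 9 members were lower in the knockdown library, and 4 of them, Cnn1, Postn, Acta2 and Thbs1, were lower by at least 2-fold. A minimum of 1 CPM in the mean of both libraries (counts scaled to a common library size with edgeR's TMM factors) left 14158 genes. Of these, 7.76% were at least 2-fold lower, 7.64% at least 2-fold higher, and 50.3% had a log2 fold below 0. No member was higher. All 9 members passed that minimum. Their median log2 fold was -0.88, beside -0.004 over all genes past the minimum. The interval of the ratio stayed under 1 for all 9, as it did for 33.6% of all genes. Taken as a sum, the 9 genes held 589 CPM in control cells and 206 CPM in knockdown cells. Acta2 alone made up 261 of the 589 CPM.

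**Figure D1:**
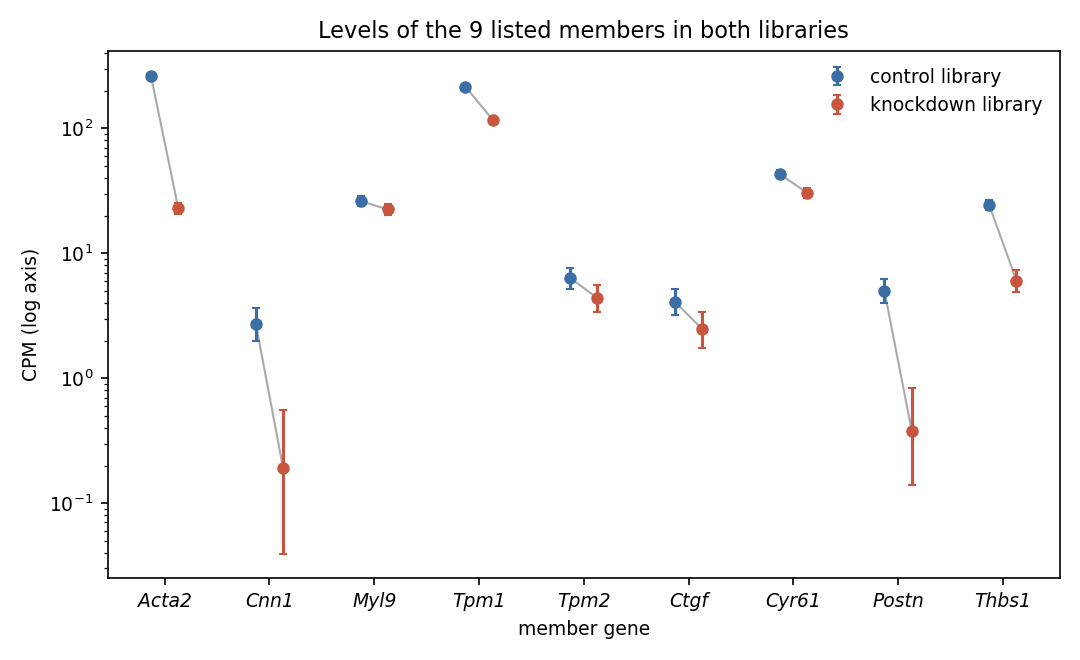
Level of each of the 9 listed members in the control library (blue) and the knockdown library (red), in CPM on a log axis. Bars are exact Poisson 95% intervals for counting error. Acta2, Cnn1, Postn and Thbs1 drop furthest between the libraries, while the points of Myl9, at 26.2 and 22.4 CPM, lie close together.

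Whole-series values that touch these results were as follows. Gene counts summed to 16549682 in control cells and 16058407 in knockdown cells, so 3 counts, the floor used here, correspond to 0.178 and 0.190 CPM. Ccdc25, the targeted gene, had 553 counts in control cells and 411 in knockdown cells, a ratio of 0.794 (95% counting interval 0.697 to 0.904). A lower log2 fold than that of Ccdc25 was found for 26.5% of all genes past the minimum. All 8 markers of neural stem cells and radial glia passed the minimum, and their summed level was 6435 CPM in control cells and 8219 CPM in knockdown cells. Markers of other lineages differed as well. The sums of 6 neuronal markers were 2084 and 1021 CPM, those of 5 astrocyte markers 140 and 774 CPM, and those of 5 oligodendrocyte lineage markers 1114 and 2056 CPM. Because a library pools many cells, fewer cells of a type and less RNA per cell cannot be told apart, and the part of these marker differences in the members' values was not tested.

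Acta2 encodes the actin of smooth muscle, which also marks pericytes and activated fibroblasts. The gene (ENSMUSG00000035783) lies on the minus strand of chromosome 19, 34241090 to 34255336, in the positions of the table, which are those of GRCm38. It had 4396 counts in control cells and 360 in knockdown cells, or 261 and 22.8 CPM. The control level was the 611th highest of all genes past the minimum. Acta2 was 11.4-fold lower in the knockdown library (10.3 to 12.8), a log2 fold of -3.51, and 0.283% of all genes past the minimum had a lower log2 fold. The deposited fold change in the authors' deposited table, 0.0844, rests on another library scaling than the ratio of 0.0875 found here.

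Promoters are shown for Acta2, the member with the highest CPM in control cells, and for Myl9, the member with the smallest difference. That of Cyr61, a YAP target, is shown as well. Acta2 holds an MCAT element and CArG-like stretches but no exact CArG box. Myl9 holds a CArG box and a CArG-like stretch, and Cyr61 only an MCAT element. Each window is the 250 bases before the RefSeq start on GRCm38.p6, read 5′ to 3′ on the gene's strand. The windows lie at chr19:34255374-34255623 (minus strand), chr2:156775214-156775463 (plus strand) and chr3:145649986-145650235 (minus strand). Capitals mark CArG boxes, CArG-like stretches in which 1 inner base is G or C, and the MCAT element, searched as CATTCC or GGAATG so that both strands are covered.
Acta2: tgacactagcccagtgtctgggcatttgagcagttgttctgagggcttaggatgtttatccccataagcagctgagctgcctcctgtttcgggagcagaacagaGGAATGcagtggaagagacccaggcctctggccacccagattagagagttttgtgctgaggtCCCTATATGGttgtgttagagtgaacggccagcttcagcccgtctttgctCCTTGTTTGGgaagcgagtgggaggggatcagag
Myl9: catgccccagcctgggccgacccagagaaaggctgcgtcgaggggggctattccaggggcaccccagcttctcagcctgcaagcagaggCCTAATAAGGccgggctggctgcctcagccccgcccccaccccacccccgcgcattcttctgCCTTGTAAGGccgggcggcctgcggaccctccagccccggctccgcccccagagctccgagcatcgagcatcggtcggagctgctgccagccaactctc
Cyr61: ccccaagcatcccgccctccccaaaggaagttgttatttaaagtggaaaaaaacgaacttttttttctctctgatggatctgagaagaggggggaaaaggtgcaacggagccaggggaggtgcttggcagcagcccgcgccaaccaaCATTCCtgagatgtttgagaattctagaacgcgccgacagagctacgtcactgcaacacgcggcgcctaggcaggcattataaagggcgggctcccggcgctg

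A promoter was matched for 7 of the 9 listed members, Cyr61 under its present symbol Ccn1, and not for Ctgf and Thbs1. Myl9 was the 1 member of the 7 with an exact CArG box, CCTAATAAGG, which starts 161 bases before the RefSeq start. Of 32851 promoters of the same length, 1.47% held such a box. Acta2 held 2 CArG-like stretches, CCCTATATGG at 84 and CCTTGTTTGG at 34 bases before the start, and Myl9 held CCTTGTAAGG at 99 bases. The search for these looser stretches was added after the Acta2 window was read, and 7.24% of all promoters held at least 1. MCAT elements stood in Acta2 at 146, in Tpm1 at 56 and in Cyr61 at 103 bases before the start, and in 12.6% of all promoters. Acta2 and Myl9 both carried CArG or CArG-like letters, with log2 folds of -3.51 and -0.22. The part of any of these letters in the members' values was not tested. The windows of Cnn1, Tpm2 and Postn held none of the 3 kinds of match. A match is a run of letters and not a measured binding site.

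The other actins differed in direction. Actb and Actg1, the cytoplasmic actins of all cells, had log2 folds of -0.06 and -0.40, with 3301 and 3168 CPM for Actb and 1922 and 1460 CPM for Actg1. Actc1, the cardiac actin, was higher in the knockdown library, with 155 and 540 counts, a ratio of 3.72 (3.11 to 4.48). Acta1, the skeletal muscle actin, had 14 and 20 counts and an interval that includes 1 (0.733 to 3.27). Actg2, the enteric smooth muscle actin, had 8 counts in control cells and 0 in knockdown cells, an interval of 0 to 0.626 that lies below 1, and did not pass the minimum. Both smooth muscle actins were thus lower in the knockdown library, Actg2 on very few counts. Acta2 took 4.75% of the counts of the 6 actin genes in control cells (exact binomial 95% interval 4.61% to 4.89%) and 0.487% in knockdown cells (0.438% to 0.540%). Per kilobase of merged exons, Acta2 stood at 119 and 10.4 CPM, so in the control it was already well below Actb at 1232 CPM and Actg1 at 723 CPM per kilobase. Only 7 of 2146 windows of 50 bases in the Acta2 transcripts of GENCODE M21 recur in transcripts of another gene, among them Actg1, so reads of that length would rarely be ambiguous for Acta2. For Actg1 that share was 37.4%, mainly with the predicted genes Gm12715 and Gm8399, and its level is uncertain if such reads were dropped.

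Cnn1 encodes calponin 1, an actin-binding protein of mature smooth muscle that restrains myosin. The gene (ENSMUSG00000001349, chromosome 9, 22099216 to 22109630, plus strand) had 46 counts in control cells and 3 in knockdown cells, or 2.73 and 0.190 CPM. Its ratio was 0.0697 (0.0139 to 0.217), so its bounds lie more than 10-fold apart, and the upper one is well below 1. The related Cnn2, found in non-muscle cells, was lower by much less, at 1472 and 680 counts and a ratio of 0.494 (0.450 to 0.541). Cnn3, the calponin of neural and other non-muscle cells, was on the opposite side, with 353 and 462 CPM and a ratio of 1.31 (1.27 to 1.36). For Cnn3, 24.0% of 50-base windows recur in transcripts of other genes, so its value is uncertain if such reads were dropped. Cnn1 therefore took 0.617% of all calponin counts in control cells (0.452% to 0.821%) and 0.0376% in knockdown cells (0.00776% to 0.110%).

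Tpm1 and Tpm2 encode tropomyosins, coiled-coil proteins that lie along actin filaments and gate the access of myosin. Tpm1 (ENSMUSG00000032366, chromosome 9, 67022590 to 67049406, minus strand) had 3641 and 1845 counts, or 216 and 117 CPM, and was 1.85-fold lower (1.75 to 1.95). This value lies just inside the 2-fold limit, and 9.14% of all genes past the minimum had a lower log2 fold. Tpm2 (ENSMUSG00000028464, chromosome 4, 43514711 to 43523765, minus strand) had 107 and 69 counts and a ratio of 0.689 (0.502 to 0.941). The intervals of both tropomyosins overlap, so their ratios cannot be told apart at this depth. Tpm4, a non-muscle tropomyosin, had a ratio of 0.700 (0.667 to 0.735), which overlaps that of Tpm2 and lies above that of Tpm1. Tpm3, also widely expressed, had a ratio of 1.12 (1.07 to 1.18). Per kilobase of merged exons, Tpm1 stood at 33.3 CPM in the control, level with Tpm3 at 33.1 CPM, and at 18.04 beside 37.2 CPM in the knockdown library. The gene counts do not separate the muscle and non-muscle isoforms that Tpm1 makes by alternative splicing. Of the 50-base windows of Tpm3 and Tpm4, 23.2% and 15.7% recur in other genes, and none of those of Tpm1 and Tpm2 do.

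Myl9 encodes the regulatory myosin light chain of smooth muscle, whose phosphorylation switches contraction on. The gene (ENSMUSG00000067818, chromosome 2, 156775420 to 156781658, plus strand) had 441 and 354 counts, or 26.2 and 22.4 CPM. Its ratio of 0.858 (0.744 to 0.989) was the closest to 1 among the 9 members, and 33.2% of all genes past the minimum had a lower log2 fold. The other light chains of the family gave similar ratios. Myl12a had 0.804 (0.767 to 0.841), Myl12b 0.921 (0.872 to 0.973) and the essential chain Myl6 0.822 (0.787 to 0.859), all of which overlap the interval of Myl9. Myl9 took 3.60% of the counts of these 4 genes in control cells (3.28% to 3.94%) and 3.67% in knockdown cells (3.31% to 4.07%), which is within counting error. Myl12a and Myl12b share 551 of their 50-base windows with each other, so the split between them is uncertain.

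**Figure D2:**
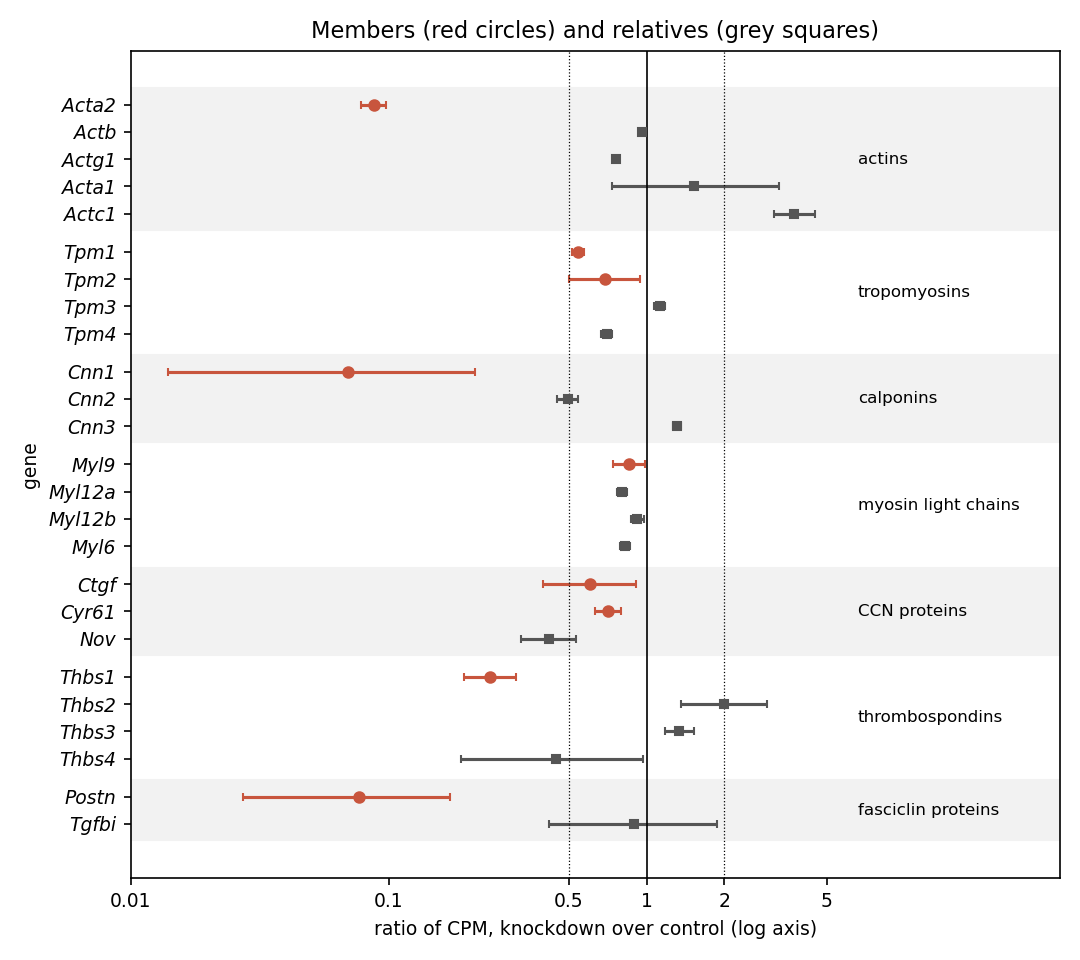
Ratio of CPM, knockdown over control, on a log axis for members (red circles) and relatives of the same family past the minimum (grey squares). Bars are exact conditional binomial 95% intervals for counting error, and dotted lines mark 2-fold. Acta2, Cnn1, Postn and Thbs1 lie left of their relatives, while Myl9 lies among the other myosin light chains.

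Without Acta2, the contractile members Cnn1, Myl9, Tpm1 and Tpm2 summed to 251 and 144 CPM, 1.75-fold lower in the knockdown library (1.66 to 1.84). With Acta2 the sum was 512 and 167 CPM, 3.07-fold lower (2.94 to 3.21). The size of the summed difference thus rests largely on Acta2. By length-scaled level, Acta2 made up 5.71% of the actin family in control cells and 0.589% in knockdown cells. Tpm1 made up 18.6% and 13.5% of the tropomyosins, and Thbs1, described below, 40.1% and 11.2% of the thrombospondins.

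**Figure D3:**
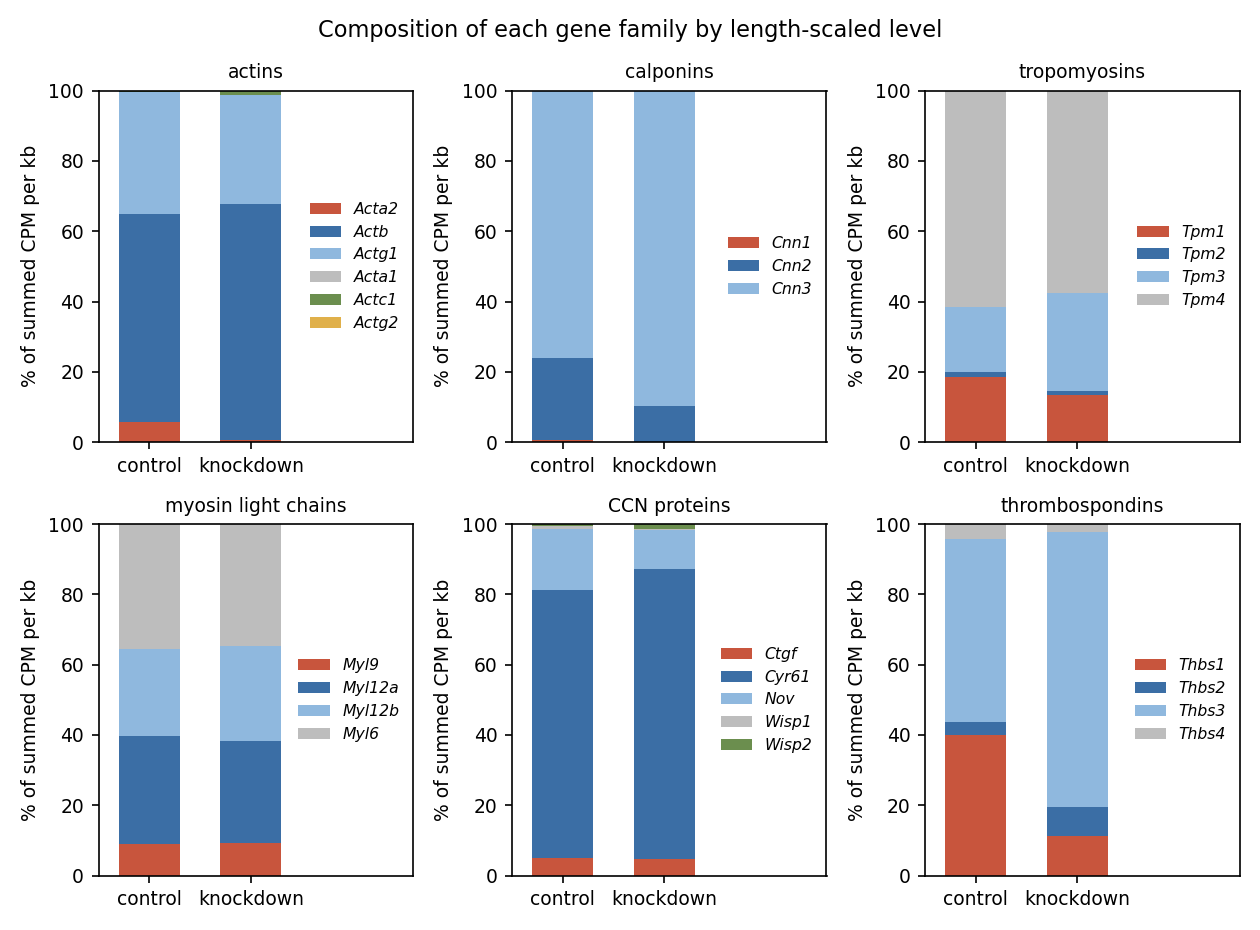
Share of each gene in the summed level of its family, in CPM per kilobase of merged exons, for the control and the knockdown library (1 library each, no error bars). The first gene of each legend, in red, is a member. Tpm2 and Cyr61 are members too. Thbs1 shrinks from 40.1% to 11.2%, and Myl9 keeps 9.14% and 9.28%.

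Ctgf and Cyr61 encode secreted matricellular proteins of the CCN family and are the most used readouts of YAP activity, although TGF-beta and SRF also act on them. Cyr61 (ENSMUSG00000028195, chromosome 3, 145646976 to 145649981, minus strand) had 725 counts in control cells and 482 in knockdown cells, or 43.0 and 30.6 CPM. Its ratio was 0.710 (0.632 to 0.798). Ctgf (ENSMUSG00000019997, chromosome 10, 24595442 to 24598683, plus strand) had only 69 and 39 counts, or 4.09 and 2.47 CPM, and a ratio of 0.604 (0.397 to 0.907). Both were thus lower, both lay within 2-fold, and their intervals overlap. Of all genes past the minimum, 19.0% had a lower log2 fold than Cyr61 and 12.1% a lower one than Ctgf. Ctgf shares 665 exonic bases with the transcript Gm15270 on the opposite strand, and the labels do not say whether reads were counted by strand. Per kilobase, Cyr61 was the most abundant CCN gene in both libraries, at 21.3 and 15.1 CPM beside 1.43 and 0.864 CPM for Ctgf. Nov, a further CCN gene, had 235 and 92 counts and a ratio of 0.418 (0.325 to 0.535). Wisp1, with 19 and 3 counts, and Wisp2, with 6 and 8, did not pass the minimum.

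Postn encodes periostin, a matrix protein that fibroblasts secrete in response to TGF-beta. The gene (ENSMUSG00000027750, chromosome 3, 54361109 to 54391037, plus strand) had 84 counts in control cells and 6 in knockdown cells, or 4.98 and 0.380 CPM. Its ratio was 0.0763 (0.0272 to 0.173), close to those of Cnn1 and Acta2, and the 3 intervals overlap. Tgfbi, its relative among the fasciclin domain proteins, had 18 and 15 counts and a ratio of 0.890 (0.418 to 1.87). Thbs1 encodes thrombospondin 1, which activates latent TGF-beta and inhibits angiogenesis. Thbs1 (ENSMUSG00000040152, chromosome 2, 118111876 to 118127133, plus strand) had 410 and 95 counts, or 24.3 and 6.02 CPM, and was 4.04-fold lower (3.22 to 5.10). The related Thbs2 and Thbs3 were on the opposite side of 1, Thbs2 at 44 and 82 counts, a ratio of 1.99 (1.36 to 2.94), and Thbs3 at 421 and 527 counts, a ratio of 1.34 (1.17 to 1.52). Thbs4 had 24 and 10 counts and a ratio of 0.445 (0.190 to 0.966). Thbs1 took 45.6% of thrombospondin counts in control cells (42.3% to 48.9%) and 13.3% in knockdown cells (10.9% to 16.02%). It shares 208 exonic bases with Gm29233 on the opposite strand.

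In order from the lowest, the ratios ran Cnn1, Postn, Acta2, Thbs1, Tpm1, Ctgf, Tpm2, Cyr61 and Myl9. The first 3 could not be ordered within counting error. Thbs1 lay above Acta2 and Postn with no overlap of intervals, and its interval overlaps only that of Cnn1 among them. The members within 2-fold had log2 folds from -0.88 to -0.22 and those beyond it from -3.64 to -2.01, with none between. Abundance did not separate these sets, since the members beyond 2-fold ranged from 2.73 to 261 CPM in the control and the others from 4.09 to 216 CPM.

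Other smooth muscle contractile genes did not share a direction. Of the 12 on the list, 9 were in the table and 6 passed the minimum. Of those 6, 1 was at least 2-fold lower and 2 at least 2-fold higher, beside 7.76% and 7.64% of all genes. Their median log2 fold was -0.12. Lmod1, a nucleator of actin filaments in smooth muscle, had 32 and 10 counts and a ratio of 0.334 (0.146 to 0.696). Smtn, which encodes smoothelin, had a ratio of 0.690 (0.605 to 0.786), and shares 714 exonic bases with a transcript on the opposite strand. Synpo2, an actin-bundling protein of muscle, was higher, at 31 and 144 counts and a ratio of 4.96 (3.35 to 7.57). Csrp1, a LIM domain protein that is also found outside muscle, had 1230 and 3142 counts and a ratio of 2.73 (2.55 to 2.92). Myh11, the heavy chain of smooth muscle myosin, had 7 and 11 counts, and Des, the intermediate filament desmin, 5 and 4, both below the minimum.

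The cytoskeletal targets of SRF and MRTF were mostly lower and mostly within 2-fold. All 18 passed the minimum, and 15 had a log2 fold below 0, beside 50.3% of all genes. At least 2-fold lower were 2 and at least 2-fold higher 0, beside 7.76% and 7.64% of all genes. The median log2 fold was -0.43. With total-count or median-of-ratios scaling, 16 lay below 0. Tuft1 had 59 and 14 counts and a ratio of 0.254 (0.131 to 0.460), and Cnn2, given above, was the other. Actn1, the actin crosslinker alpha-actinin 1, had a ratio of 0.644 (0.590 to 0.704). Fhl1, a LIM domain protein of muscle, had a ratio of 1.55 (1.47 to 1.63).

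Other YAP and TAZ targets lay on both sides of 0. Of 20 genes on the list, 19 were in the table and 18 passed the minimum. Of those 18, 3 were at least 2-fold lower and 1 at least 2-fold higher, beside 7.76% and 7.64% of all genes. Their median log2 fold was -0.10. Myof, a membrane repair protein, had 129 and 24 counts and a ratio of 0.199 (0.123 to 0.309). Nt5e, the ecto-nucleotidase CD73, had a ratio of 0.385 (0.238 to 0.604), and Dock5, an activator of Rac, 0.465 (0.312 to 0.680). Ccdc80, a matrix protein, was higher, at 134 and 259 counts and a ratio of 2.07 (1.67 to 2.56), and stayed short of 2-fold when libraries were scaled to total counts. Ankrd1, which is often used beside Ctgf and Cyr61, was not analysed here.

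**Figure D4:**
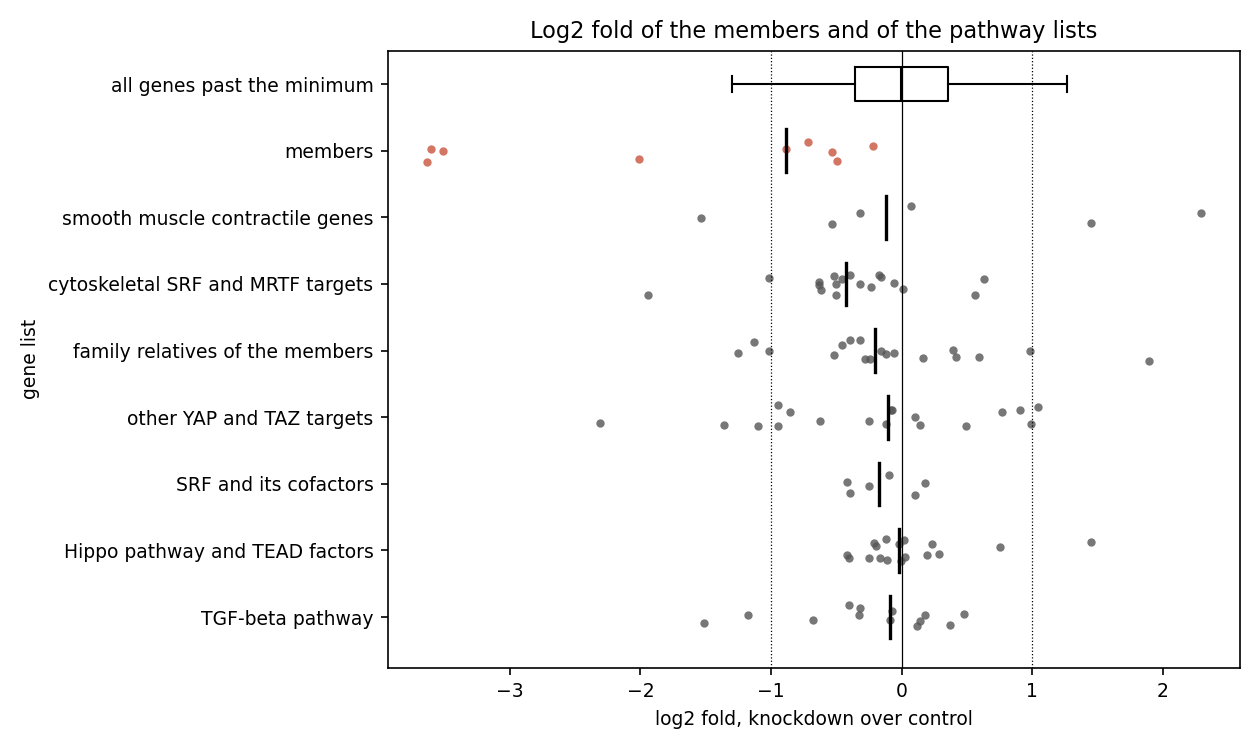
Log2 fold, knockdown over control, of the members (red) and of each gene of the pathway lists past the minimum (grey), with the median of each list as a black bar. The box gives the quartiles of all 14158 genes past the minimum and its whiskers the 5th and 95th percentiles, and dotted lines mark 2-fold. The median of the members is -0.88, and those of the pathway lists lie between -0.43 and -0.02.

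Most regulators of these genes lay within 2-fold, as did 11978 of all 14158 genes past the minimum. Srf had 110 and 92.6 CPM and a ratio of 0.842 (0.786 to 0.902). Its cofactors Mkl1 and Mkl2, which encode the MRTF proteins, had ratios of 0.760 (0.687 to 0.842) and 0.750 (0.649 to 0.866). Of the ternary complex factors, which serve SRF at immediate early genes, Elk4 had 1.13 (1.03 to 1.25). In all, 6 of the 7 genes of this list were in the table and all 6 lay within 2-fold. Myocd, the cofactor of smooth muscle, was not analysed here. Of the co-activators, Yap1 had 91.0 and 78.8 CPM and a ratio of 0.866 (0.803 to 0.934), and Wwtr1, which encodes TAZ, had 50.6 and 57.8 CPM and a ratio of 1.14 (1.04 to 1.26). Among the TEAD factors, Tead2 was the most abundant per kilobase, at 61.1 and 46.2 CPM, with a ratio of 0.757 (0.724 to 0.790). Tead1 had a ratio of 1.01 (0.935 to 1.09). Tead3 was higher, at 232 and 594 counts and a ratio of 2.74 (2.35 to 3.20), and Tead4, with 6 and 21 counts, did not pass the minimum. Of the 17 Hippo pathway and TEAD genes past the minimum, 16 lay within 2-fold, Tead3 being the exception, with a median log2 fold of -0.02. Vgll4, which competes with YAP for TEAD factors, had a ratio of 1.69 (1.57 to 1.82), and Amotl1, which binds YAP, 0.748 (0.690 to 0.810).

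TGF-beta induces Acta2, Ctgf, Postn and Thbs1 in many cell types. Its 3 ligand genes did not share a direction. Tgfb1 had 62 and 20 counts and a ratio of 0.345 (0.197 to 0.579). Tgfb3 had 90 and 37 counts and a ratio of 0.439 (0.291 to 0.651), and shares exonic bases with 2 transcripts on the opposite strand. Tgfb2, the most abundant ligand per kilobase, had 374 and 386 counts and a ratio of 1.10 (0.954 to 1.27). The receptor Tgfbr2 had a ratio of 0.623 (0.505 to 0.767), and Smad7, an inhibitor that the pathway induces, 1.39 (1.06 to 1.83). Of 13 genes of this pathway past the minimum, Tgfb1 and Tgfb3 were at least 2-fold lower and 0 genes at least 2-fold higher. Of all genes, 7.76% were at least 2-fold lower and 7.64% at least 2-fold higher. The median log2 fold of the pathway was -0.09. The part of this pathway in the members' values was not tested.

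Marker lists of the non-neural cells that express the members most differed from each other in direction. Of 10 markers of pericytes and vascular smooth muscle, 8 were in the table and 3 passed the minimum. Those 3 were all higher in the knockdown library, Pdgfrb with a ratio of 4.56 (2.74 to 7.95), Cspg4 with 2.27 (2.08 to 2.48) and Notch3 with 1.91 (1.79 to 2.05), and neural progenitors express Notch3 and oligodendrocyte progenitors Cspg4. Of the 5 below the minimum, the more specific Rgs5 had 8 and 7 counts and Myh11 7 and 11. Vtn had 10 and 5, Anpep 6 and 3 and Higd1b 1 and 1, and all 5 intervals include 1. The summed level of the list was 125 CPM in control cells and 256 CPM in knockdown cells, and none of its 8 genes stood at 0. Most of that sum was Notch3, at 78.2 and 149 CPM, and Cspg4, at 43.9 and 99.6 CPM.

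All 10 markers of meningeal fibroblasts and mesenchyme were in the table and 7 passed the minimum. Of those 7, 5 were at least 2-fold lower and 1 at least 2-fold higher, beside 7.76% and 7.64% of all genes. Dcn, a small matrix proteoglycan, had 90 and 12 counts and a ratio of 0.142 (0.0710 to 0.261). The collagens Col3a1 and Col1a2 had ratios of 0.215 (0.150 to 0.302) and 0.234 (0.165 to 0.326). Lum, Twist1 and Tbx18 did not pass the minimum. Lum had 27 counts in control cells and 0 in knockdown cells, an interval of 0 to 0.156. Twist1 had 27 and 3 counts and a ratio of 0.119 (0.0231 to 0.386). Tbx18 had 5 and 0 counts, and its interval of 0 to 1.17 includes 1. Pdgfra, which oligodendrocyte progenitors also express, was the member of this list that was higher, with 267 and 1924 counts. The summed level of the list was 176 and 180 CPM, and without Pdgfra it was 160 and 57.8 CPM. The 5 markers at least 2-fold lower thus had the direction of Acta2, Cnn1, Postn and Thbs1, whereas Pdgfra had the opposite one and Foxc1 an interval that includes 1 (0.333 to 1.23). The part of these markers in the members' values was not tested. Of 8 endothelial markers, 5 were in the table and 1, Kdr, passed the minimum, with 25 and 9 counts. Of the 4 below the minimum, Cdh5 had 7 and 0 counts, Emcn 10 and 2, Esam 19 and 12 and Pecam1 8 and 9. The intervals of Emcn, Esam and Pecam1 include 1. The summed level of the list was 4.09 and 2.03 CPM.

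**Figure D5:**
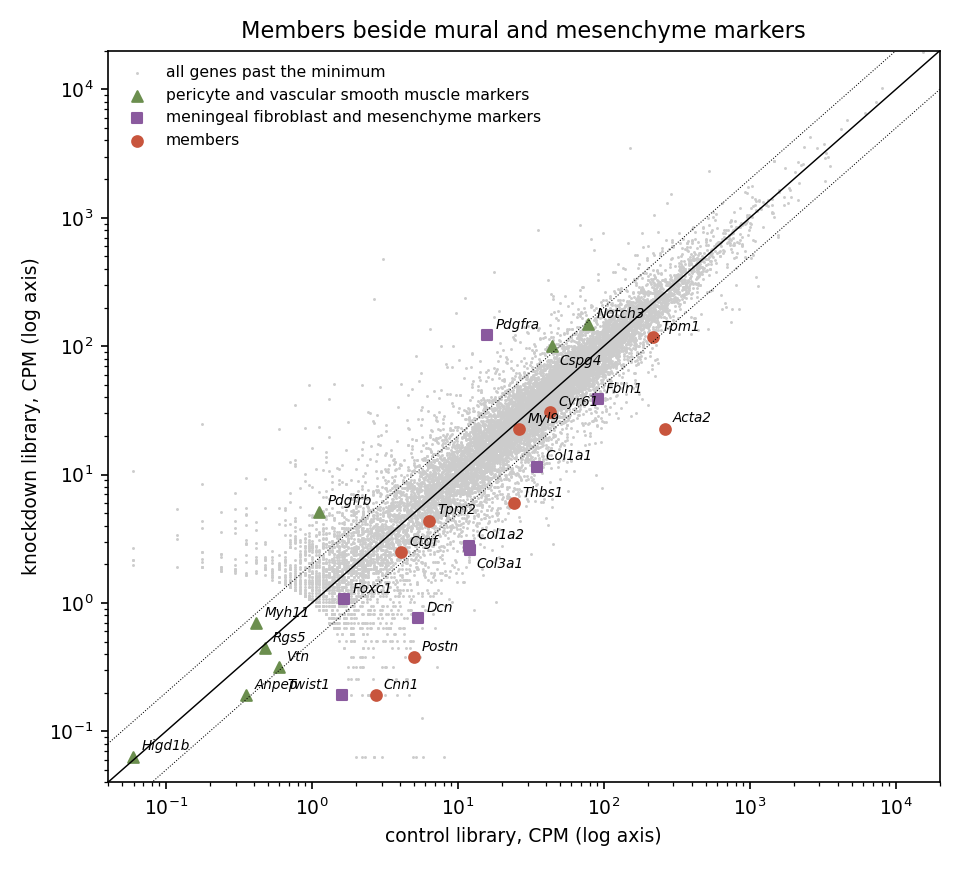
Level in the knockdown library against level in the control library, in CPM on log axes, for all genes past the minimum (grey), the members (red circles), pericyte and vascular smooth muscle markers (green triangles) and meningeal fibroblast and mesenchyme markers (purple squares). The solid line marks equal levels and dotted lines 2-fold, and genes at 0 in either library are not drawn. Acta2, Thbs1, Postn and Cnn1 lie below the lower dotted line beside Dcn, Col1a2 and Col3a1, while Pdgfra and Pdgfrb lie above the upper one.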

How the data were processed

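RNA sequencing of 1 control and 1 knockdown library was analysed. Per the submitters' processing notes, Bowtie2 2.2.3, TopHat2 2.0.12, HTSeq 0.6.0 and the build mm9 were used, in no stated order. The positions of the table are those of GRCm38. The authors deposited raw counts per gene, per the file headers. They also deposited normalised values, a fold change, which is the ratio of these values, and its log2. For genes above 0 counts the normalised values are CPM with 1 factor per library. Lum, Tbx18, Cdh5 and Actg2, at 0 counts in the knockdown library, carry 0.0311 there in place of 0. Per the file headers, the table also holds p-values, raw and adjusted. No test is named for them, and they were not used.

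Counts were scaled with edgeR 4.0.16 (TMM). Log2 folds, knockdown over control, were taken after adding 0.5 to each count, while CPM and ratios carry no addition. Genes averaging at least 1 CPM over the libraries were kept, and 2-fold was the limit for counting genes. Ratio intervals are exact conditional binomial, shares exact binomial (Clopper-Pearson), and both cover counting error only, since PCR copies are not independent molecules. The calculation was tested on simulated data. Merged exon lengths and overlaps come from GENCODE M21, promoters from RefSeq. The members and lists were chosen with earlier results of these data known. Beyond the members, the regulators, Ccdc25 and relatives beside a member, named genes are up to 4 of each list by absolute log2 fold. Des, Myh11, Rgs5, Vtn, Anpep, Higd1b, Foxc1, Lum, Twist1, Tbx18, Cdh5, Emcn, Esam, Pecam1 and Tgfb2 fall outside that rule. They were named after their values were seen. Alternatives were total-count and median-of-ratios (DESeq2) scaling, no minimum or 10 CPM, a prior count of 5, the authors' normalised values and 1.5-fold. Some values that the lists and the rule take are not reported here.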

Additional observations from a re-analysis of the deposited data

How the results depend on the processing

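All 9 members kept a log2 fold below 0 under every alternative that gave a value, and all their log2 folds stayed inside their counting intervals. The median over the members lay between -0.94 and -0.88. A prior count of 5 brought Cnn1 from -3.64 to -2.58 and Postn from -3.60 to -2.92, since both rest on few counts. With a mean of at least 10 CPM, 5 members remained and 2 were at least 2-fold lower, because Cnn1 and Postn did not pass. Of all genes, 4.87% were then lower and 4.91% higher. That minimum left 0 smooth muscle genes lower and 1 higher, 1 cytoskeletal SRF target lower, 1 family relative lower, 0 YAP targets lower and 0 TGF-beta genes lower. Without a minimum, 2 smooth muscle genes and 5 relatives were at least 2-fold lower and 2 Hippo and TEAD genes at least 2-fold higher, beside 12.6% of all genes lower and 11.7% higher. At 1.5-fold, where 2218 of all 14158 genes were lower and 2259 higher, 5 cytoskeletal SRF targets were lower and 1 higher, 3 relatives higher, 7 YAP targets lower and 4 higher, and 2 Hippo and TEAD genes higher. With total-count scaling and with the authors' normalised values, 0 YAP targets were at least 2-fold higher. These changes follow from which genes are tested, the limit used, or for the last from Ccdc80 lying close to 2-fold. Total-count scaling moved the median of all genes by less than 0.1 on the log2 scale. No paired analysis was possible because each group has 1 library. Depth limits Cnn1, Postn, Ctgf and Tpm2 most.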
